A study of Mus musculus with 6 samples.

Results

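The comparison set Trex1-deficient fibroblasts given DNA beside wild-type fibroblasts given the same DNA, and asked at which genes the 2 cultures ended at the same level although they had started from different ones. The levels after DNA rest on 2 of the study's 6 arrays, and the starting levels on the 2 mock-treated arrays of the same genotypes. The comparison comprised 15669 of 45281 array probes, those with a detection fraction above 0.99 on at least 1 of the 2 DNA-treated arrays. The detection fraction is the share of the array's negative controls that the probe outshone. Of the 15669 probes, 13816 were detected on both DNA-treated arrays, 1181 on the Trex1-deficient one alone and 672 on the wild-type one alone. A single gene is named for 13658 of them, 9092 genes in all. At the edge of the rule, 178 probes had the lowest fraction kept, 0.99038, with raw intensities of 100.2 to 117.7, and 76 probes had the highest fraction left out, 0.98932, with raw intensities of 100.1 to 115.8.

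The study profiled mouse embryonic fibroblasts (MEFs), adherent cells grown out of day 13.5 embryos of a mixed C57BL6/129Sv background, on 6 Illumina arrays. By the sample titles, TKO cells lack Trex1, WT cells are wild type, and STKO cells lack both Sting and Trex1. Each genotype was measured once 6 h after transfection with 4 µg/ml of ISD, a synthetic double-stranded interferon stimulatory DNA, and once after mock treatment. Each group therefore held 1 array, no difference below has a replicate check, and no p-value is given. The sources used here do not say how the Trex1 and Sting alleles were made, how many embryos went into a culture, or whether the genotypes were littermates.

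TREX1 is an exonuclease on the endoplasmic reticulum that degrades DNA in the cytosol. DNA that escapes it is bound by cGAS, whose cyclic dinucleotide product activates STING, and STING recruits TBK1 to phosphorylate IRF3. IRF3 switches on interferon-beta and a first set of antiviral genes, and secreted interferon then acts through its receptor and JAK kinases on a large set of interferon-stimulated genes. Loss of TREX1 causes interferon-driven inflammatory disease in mice and people.

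Trex1 itself was read by 2 of the probes. The brighter stood at 9.84 on TKO ISD and 12.62 on WT ISD, and at 9.36 on TKO mock and 10.00 on WT mock, on the log2(intensity + 16) scale used for all levels below. The dimmer stood at 8.95 on TKO ISD and 12.14 on WT ISD, and at 8.08 on TKO mock and 9.29 on WT mock. Trex1 signal was thus lower in TKO than in WT cells but still detected, 6.86-fold and 9.16-fold lower with ISD, and where these probes lie relative to the disrupted part of the gene is not given in the sources used here. Sting1 stood at 8.06 on TKO ISD, 8.92 on WT ISD, 7.13 on TKO mock and 7.34 on WT mock, with its lowest levels, 5.64 and 5.81, on STKO ISD and STKO mock. That order fits the titles. The genotype field of the labels disagrees with the titles about Sting on 5 of the 6 arrays, and the titles are followed here.

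The cultures carried fibroblast and macrophage transcripts together. All 12 fibroblast markers (among them Col1a1, Pdgfra and Dcn) were detected on all 6 arrays, and so were 8 of the 9 macrophage markers on the array (such as Csf1r, Lyz2, Ptprc and Tyrobp). The exception was Fcer1g, described below. The summed linear level of the macrophage list was 130040 on TKO ISD and 102940 on WT ISD and ranged from 102940 to 139360 over the 6 arrays. The list includes Fcer1g, at 15.01 on TKO ISD and 4.64 on WT ISD on the log2 scale. These sums therefore do not compare the other 8 markers between the genotypes. That of the fibroblast list was 21143 on TKO ISD and 22284 on WT ISD and ranged from 21143 to 27239. None of 6 endothelial markers was detected on any array. Of the 9 macrophage markers 6 lay within 1.5-fold between the ISD arrays, for instance Tyrobp at 12.84 on TKO ISD and 12.38 on WT ISD. Cd14 was lower, at 11.64 on TKO ISD and 12.54 on WT ISD, and Itgam was higher, at 7.23 on TKO ISD and 6.55 on WT ISD, both by less than 2-fold. In such bulk RNA, fewer cells of a type and less RNA per cell cannot be told apart, and the part of the macrophage transcripts in the results below was not tested.

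With ISD, the 2 genotypes were alike at most probes. The levels of 12024 probes (76.7%) lay within 1.5-fold of each other, which is called level below, and the median difference, TKO minus WT, was 0.03 on the log2 scale. At 2-fold or more, 541 probes were higher on TKO ISD (3.45% of the 15669) and 752 were lower (4.8%). Differences of 4-fold or more numbered 71 higher and 86 lower, and those of 16-fold or more 9 higher and 5 lower. On the dimmer side, 245 of the higher probes were not detected on WT ISD and 271 of the lower ones were not detected on TKO ISD. Housekeeping genes were close, with all 9 of the list within that range, as were all 11 measured genes of glycolysis and hypoxia, such as Aldoa at 12.54 on TKO ISD and 12.10 on WT ISD. The 2-fold counts depend on the background correction: without it they were 221 higher and 326 lower.

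How a probe stood after ISD depended on the side on which it had started. Of the 722 probes at which TKO mock exceeded WT mock by 2-fold or more (4.61% of the members), 335 (46.4%) were level with ISD and 239 (33.1%) were still 2-fold higher. Of the 737 probes 2-fold lower on TKO mock (4.7%), 99 (13.4%) were level with ISD and 432 (58.6%) were still 2-fold lower. Another 13 probes changed sides, 9 of them higher on TKO mock and lower on TKO ISD. Where the mock levels had lain within 1.5-fold, at 12096 probes, 168 were 2-fold higher and 155 were 2-fold lower on TKO ISD. The mock and the ISD differences share no array, and across the 15669 probes, which are not independent replicates, their correlation was 0.62 (Pearson's r).

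**Figure D1:**
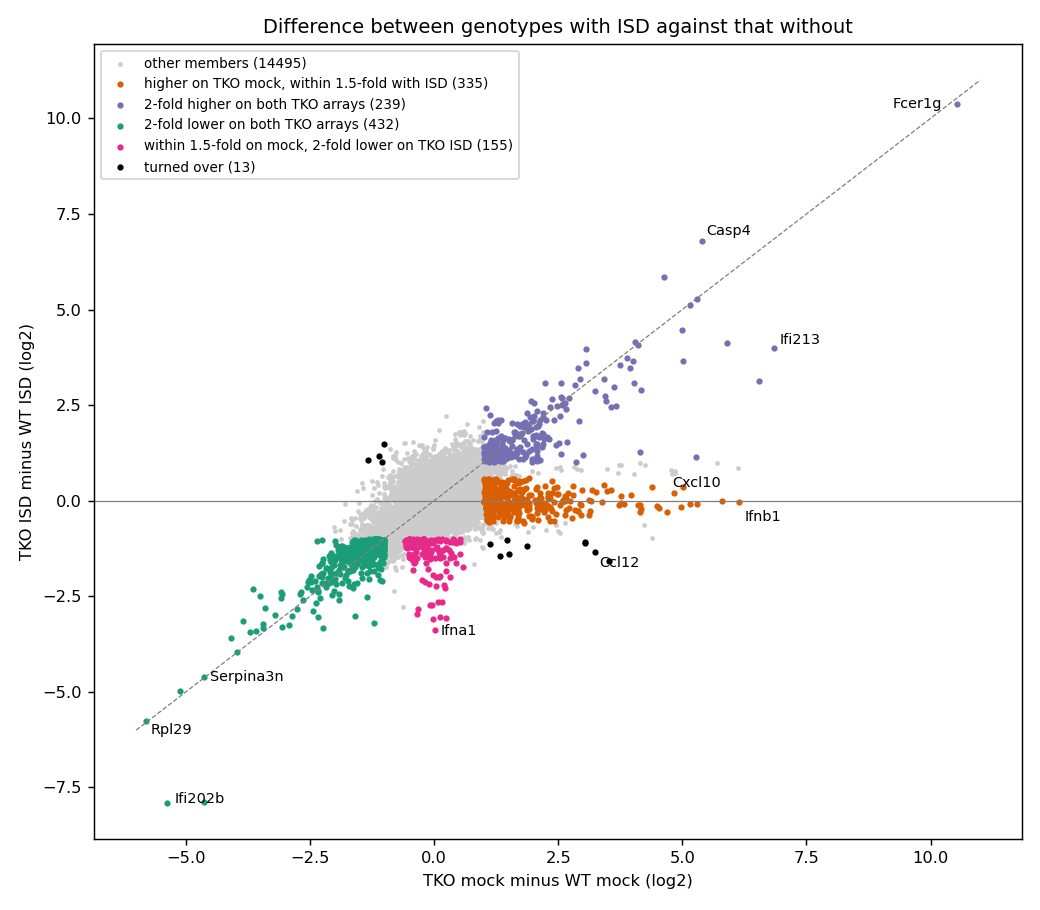
Each point is a probe; the horizontal axis gives TKO mock minus WT mock and the vertical axis TKO ISD minus WT ISD, both in log2 units of normalized intensity, 1 array a side. The dashed line marks equal differences and the solid line equal levels with ISD: 335 orange probes (Ifnb1, Cxcl10) lie along the solid line, 239 violet (Fcer1g, Casp4, Ifi213) and 432 green probes (Ifi202b, Rpl29, Serpina3n) were 2-fold apart in both states, 155 pink probes (Ifna1) were level on mock and lower on TKO ISD, and 13 black probes (Ccl12) changed sides; all others are grey.

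The size of the mock difference separated the 2 sides further. Among probes higher on TKO mock, levels met with ISD for 47.1% of 520 that had differed 2- to 4-fold, 46.9% of 160 that had differed 4- to 16-fold, and 15 of the 42 that had differed 16-fold or more (35.7%). Among probes lower on TKO mock, 99 of 660 with a 2- to 4-fold difference were level, but 0 of 71 with a 4- to 16-fold and 0 of 6 with a larger difference did.

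The 335 probes that differed on mock and were level with ISD held many interferon-stimulated genes. Their median level was 10.18 on TKO ISD and 10.14 on WT ISD, against 9.07 on TKO mock and 7.25 on WT mock. With ISD, 112 of them were 2-fold above the mock array of the same genotype in TKO cells and 303 in WT cells, with median differences, ISD minus mock, of 0.75 in TKO and 2.40 in WT cells. On the STKO arrays, which played no part in choosing them, the median was 7.32 on STKO ISD and 7.0 on STKO mock. A larger difference between ISD and mock in WT than in TKO cells follows from how these probes were chosen. At 166 of the 184 of these probes whose gene had another member probe (90.2%), another was also level with ISD. Over all members with another probe, the call with ISD was repeated in 81.95%, and 76.7% of all members were level. The mock difference was not compared on the other probe, so the closing of a gap was not checked there.

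Ifnb1, which encodes interferon-beta, and Cxcl10 were among the widest gaps closed. The Ifnb1 probe stood at 14.61 on TKO ISD and 14.63 on WT ISD, against 11.14 on TKO mock and 4.99 on WT mock, and at 7.12 on STKO ISD and 4.74 on STKO mock. Mock-treated TKO cells were at least 49.5-fold above mock-treated WT cells, where the probe was not detected, and after ISD the 2 arrays were 1.02-fold apart. Cxcl10, the chemokine that draws activated T cells through CXCR3, stood at 15.32 on TKO ISD and 15.32 on WT ISD, against 14.54 on TKO mock and 8.74 on WT mock, a mock difference of 55.8-fold. The second Cxcl10 probe, further from the top of the scale, stood at 13.32 on TKO ISD and 13.52 on WT ISD, against 12.44 on TKO mock and 7.92 on WT mock. Rsad2, the antiviral enzyme viperin, was at its ISD level already on the TKO mock array: 15.11 on TKO ISD and 15.20 on WT ISD, against 15.14 on TKO mock and 9.85 on WT mock. Its neighbour on chromosome 12, Cmpk2, a mitochondrial nucleotide kinase, stood at 14.41 on TKO ISD and 14.70 on WT ISD, against 13.44 on TKO mock and 8.76 on WT mock.

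The other probes with the widest closed gaps belonged to Gbp5, a guanylate-binding protein of cell-autonomous defence (12.49 on TKO ISD and 12.59 on WT ISD, against 10.09 on TKO mock and 4.93 on WT mock), and to the dynamin-like antiviral GTPases Mx2 and Mx1. Mx2 stood at 12.62 on TKO ISD and 12.26 on WT ISD, against 11.64 on TKO mock and 6.63 on WT mock. Mx1 stood at 11.06 on TKO ISD and 10.85 on WT ISD, against 9.41 on TKO mock and 4.59 on WT mock. Cd69, a lectin-like receptor best known from activated lymphocytes, stood at 14.86 on TKO ISD and 15.02 on WT ISD, against 12.51 on TKO mock and 7.54 on WT mock, while a dim second probe read 6.48 on TKO ISD and 7.49 on WT ISD. Ifit2, which binds foreign RNA, stood at 14.79 on TKO ISD and 14.92 on WT ISD, against 13.35 on TKO mock and 8.86 on WT mock. All of these were far lower on the STKO arrays, none above 10.25 on STKO ISD.

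Base sequences around the transcription starts are shown for genes on either side of this division, because the interferon-stimulated response element (ISRE), bound by STAT and IRF factors, and the kB site, bound by NF-kB, are the elements through which STING signalling acts on them. Each sequence is 300 bases of the gene's own strand, from 250 before the start to 50 after it, from RefSeq on GRCm38.p6. Capitals mark matches, on either strand, to the half-sites GAAA and GAAA with any 2 bases between them (ISRE) or to GGGA and TTCC with any 2 bases between them (kB). Ifnb1 (chr4:88522745-88523044, minus strand), Cxcl10 (chr5:92348840-92349139, minus strand) and Isg15 (chr4:156200769-156201068, minus strand) were level with ISD. Ifna5 (chr4:88835275-88835574, plus strand) and Ifna11 (chr4:88819669-88819968, plus strand) did not.
Ifnb1: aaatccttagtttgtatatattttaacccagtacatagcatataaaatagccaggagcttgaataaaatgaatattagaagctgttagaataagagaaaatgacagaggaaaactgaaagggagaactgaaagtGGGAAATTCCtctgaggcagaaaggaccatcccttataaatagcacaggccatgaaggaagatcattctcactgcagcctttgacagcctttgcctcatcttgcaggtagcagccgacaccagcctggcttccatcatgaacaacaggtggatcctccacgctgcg
Cxcl10: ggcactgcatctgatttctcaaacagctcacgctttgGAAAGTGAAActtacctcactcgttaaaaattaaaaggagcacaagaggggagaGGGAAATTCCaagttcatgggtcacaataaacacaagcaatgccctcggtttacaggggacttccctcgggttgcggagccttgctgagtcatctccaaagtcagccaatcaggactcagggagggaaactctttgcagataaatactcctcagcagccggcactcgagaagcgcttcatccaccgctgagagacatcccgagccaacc
Isg15: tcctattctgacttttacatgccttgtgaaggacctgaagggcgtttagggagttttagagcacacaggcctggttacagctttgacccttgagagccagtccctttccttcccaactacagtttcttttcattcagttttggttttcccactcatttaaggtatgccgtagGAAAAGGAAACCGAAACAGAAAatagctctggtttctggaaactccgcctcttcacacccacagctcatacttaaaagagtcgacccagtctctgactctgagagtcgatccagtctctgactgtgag
Ifna5: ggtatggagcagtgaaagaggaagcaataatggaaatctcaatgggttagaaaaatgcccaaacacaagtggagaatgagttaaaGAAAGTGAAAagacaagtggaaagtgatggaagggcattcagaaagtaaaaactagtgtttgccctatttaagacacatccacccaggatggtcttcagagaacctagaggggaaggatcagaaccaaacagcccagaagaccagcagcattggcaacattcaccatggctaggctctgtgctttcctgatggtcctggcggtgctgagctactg
Ifna11: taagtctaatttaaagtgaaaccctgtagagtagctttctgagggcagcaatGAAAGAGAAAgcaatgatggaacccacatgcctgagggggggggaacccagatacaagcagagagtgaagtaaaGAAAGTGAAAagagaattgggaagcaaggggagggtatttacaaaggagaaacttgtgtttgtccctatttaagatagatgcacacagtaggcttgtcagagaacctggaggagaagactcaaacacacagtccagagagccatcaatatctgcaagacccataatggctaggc

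The Cxcl10 window holds GAAAGTGAAA and the kB match GGGAAATTCC, that of Ifnb1 holds the same kB match and no exact ISRE match, and that of Isg15 holds 3 ISRE matches that overlap one another. The Ifna5 window holds 1 ISRE match and that of Ifna11 holds 2, and neither holds a kB match. Of the 189 genes higher on TKO mock and level with ISD (1 probe a gene), 153 had a window, and 40 of those (26.1%) held an ISRE match. The share was 9 of 109 (8.26%) for genes still higher on TKO ISD, 8 of 206 (3.88%) for genes lower in both states, 12 of 70 (17.1%) for genes level on mock and lower on TKO ISD, and 4.22% for all 7402 measured genes with a window. The 12 include the 8 Ifna genes lower on TKO ISD, near-identical genes of 1 family. That share therefore says little about the other genes of its class. Over all 32851 windows of the table, 3.44% held an ISRE match and 1.47% a kB match. A kB match was found in 9 of the 153 (5.88%), and in 1.66% of the measured genes with a window. A match is a run of letters, not a site shown to be used.

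The antiviral effectors, the proteins that block virus entry, translation and assembly, mostly started higher in TKO cells and closed the gap. Of 37 measured genes, 30 were 2-fold higher on TKO mock, and 23 of these 30 were level with ISD, against 46.8% of the 404 genes higher on TKO mock overall. Counted without regard to mock, 29 of the 37 were level with ISD, 2 were higher and 0 were lower, a share of level genes near the background: over all 9077 measured genes 4.45% were higher on mock, 77.2% were level with ISD, 3.38% were higher with ISD and 5.17% lower. Of the 404 genes, 33.7% were still higher, and of the 479 lower on TKO mock (5.28%) 57.8% were still lower. The median difference of the 37 was 0.03 with ISD and 2.06 on mock, beside 0.03 and -0.02 for all genes measured. Of the interferon-inducible GTPases, which attack the membranes around intracellular microbes, 10 of 11 were higher on TKO mock and 9 were level with ISD. Igtp stood at 13.54 on TKO ISD and 13.91 on WT ISD, against 12.20 on TKO mock and 9.08 on WT mock. Gm4951 was the 1 member of this list still higher, at 12.45 on TKO ISD and 11.31 on WT ISD, against 11.28 on TKO mock and 5.99 on WT mock.

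RNA sensors closed in the same way, with 7 of 8 higher on TKO mock, 6 of those level with ISD and none 2-fold apart. Ifih1 (MDA5), a sensor of long double-stranded RNA, stood at 10.87 on TKO ISD and 10.71 on WT ISD, against 8.61 on TKO mock and 6.14 on WT mock. Oasl1, which in mouse restrains translation of Irf7, was the one between the limits, at 14.10 on TKO ISD and 13.24 on WT ISD, against 12.92 on TKO mock and 6.81 on WT mock.

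Signalling genes of the interferon pathway had started closer together. Among 14 receptors, kinases, STATs and regulators, 4 were higher on TKO mock (Isg15, Usp18, Stat2 and Socs1), all 4 were level with ISD, and none of the 14 was 2-fold apart. Isg15, a ubiquitin-like modifier, stood at 13.23 on TKO ISD and 12.95 on WT ISD, against 11.62 on TKO mock and 8.43 on WT mock. Usp18, the protease that removes ISG15 and dampens the receptor, stood at 14.43 on TKO ISD and 14.54 on WT ISD, against 13.77 on TKO mock and 10.06 on WT mock. Socs3, a feedback inhibitor, was lower on TKO in both states by less than 2-fold, at 11.73 on TKO ISD and 12.56 on WT ISD and 9.22 on TKO mock and 9.92 on WT mock.

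Of the interferon regulatory factors, Irf7, which amplifies interferon production, stood at 11.67 on TKO ISD and 11.67 on WT ISD, against 10.99 on TKO mock and 7.83 on WT mock. Irf1 stood at 14.80 on TKO ISD and 14.69 on WT ISD, against 13.95 on TKO mock and 11.65 on WT mock. Irf3, the direct target of TBK1, hardly differed in any state, at 10.55 on TKO ISD and 10.65 on WT ISD and 10.97 on TKO mock and 11.06 on WT mock. Class I antigen presentation followed, with 5 of 16 genes higher on TKO mock and all 5 level with ISD, among them Tap1, a chain of the peptide transporter, at 10.62 on TKO ISD and 10.81 on WT ISD, against 9.41 on TKO mock and 7.35 on WT mock.

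Taking these 6 lists together (antiviral effectors, GTPases, RNA sensors, receptors and JAK-STAT, regulatory factors, class I), 55 of 89 genes were higher on TKO mock and 47 of the 55 were level with ISD, with 3 still higher. Outside them, 349 of 8988 genes were higher on TKO mock and 142 of those were level with ISD. Of the DNA-sensing list, 5 of 22 genes were higher on TKO mock and 3 were level with ISD. Cgas, the cytosolic DNA sensor, was one of them, at 11.86 on TKO ISD and 12.03 on WT ISD, against 11.65 on TKO mock and 10.16 on WT mock. Aim2, the inflammasome DNA sensor, is uncertain: its brighter probe stood at 10.16 on both ISD arrays, but its other probe stood at 7.93 on TKO ISD and 10.12 on WT ISD.

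**Figure D2:**
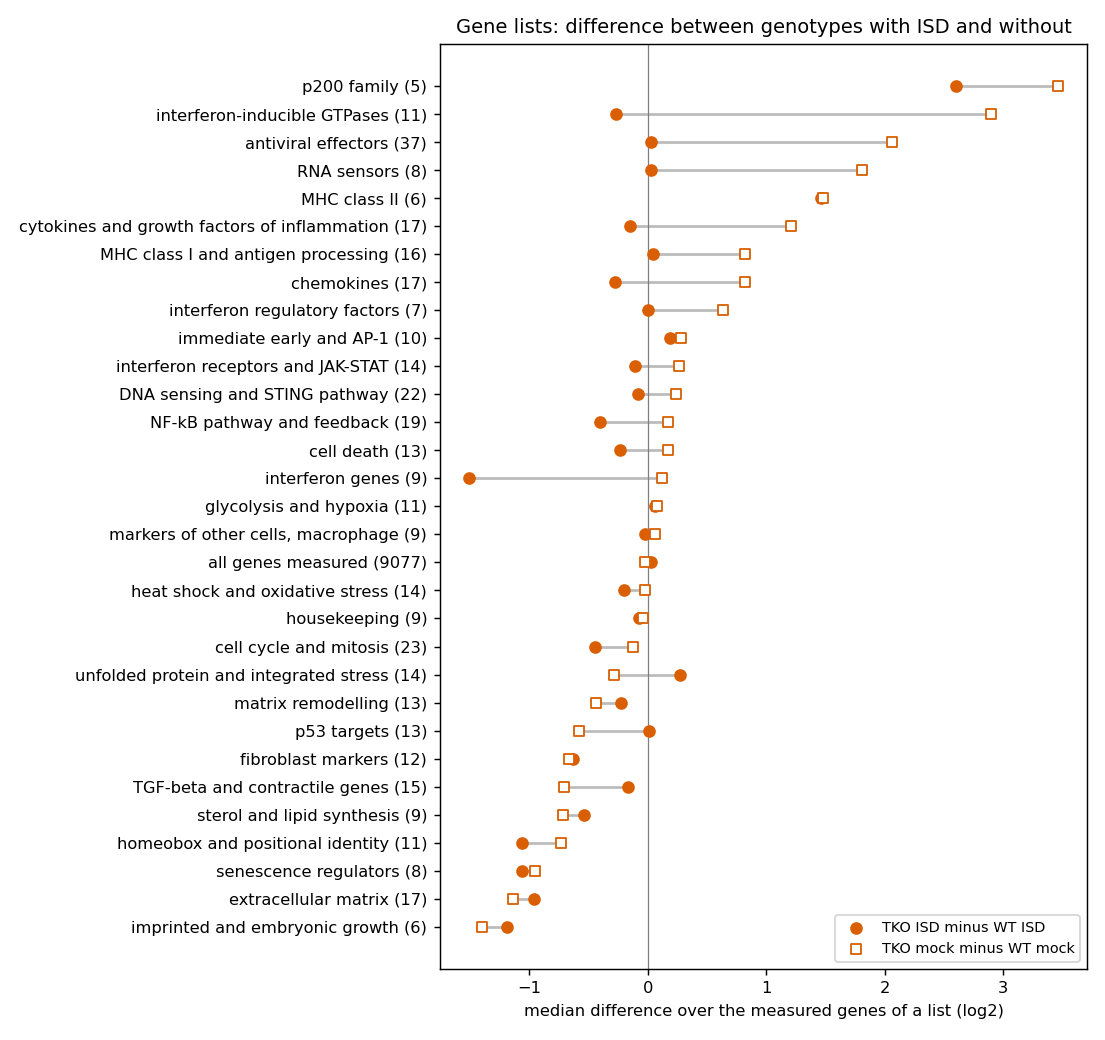
Rows are gene lists with 5 or more measured genes (number in brackets, 1 probe a gene); the horizontal axis gives the median log2 difference between genotypes, filled circles for TKO ISD minus WT ISD and open squares for TKO mock minus WT mock. The 6 interferon-type lists have ISD medians between -0.27 and 0.05 beside mock medians of up to 2.90, MHC class II has 1.47 with ISD beside 1.48 on mock, and the interferon genes have -1.50 with ISD beside 0.12 on mock.

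The alpha interferons did not end level. They are a cluster of near-identical genes on chromosome 4, next to Ifnb1, and their probes may read one another's transcripts, so members are given as a family. Of the 24 Ifna probes on the array, 19 were members, covering 9 genes. Of these 19, 17 were detected on neither mock array, 14 were detected on TKO ISD and 19 on WT ISD, and 18 were 2-fold lower on TKO ISD. The differences ran from -3.38 to -0.80 with a median of -2.65. In the list of interferon genes, 6 of 9 were lower on TKO ISD and Ifnb1 was level. Ifnab was level by its brighter probe, but its other probe stood at 7.08 on TKO ISD and 9.05 on WT ISD.

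Ifna5 stood at 9.70 on TKO ISD and 11.91 on WT ISD, against 4.62 on TKO mock and 4.42 on WT mock. Ifna11 stood at 9.94 on TKO ISD and 11.95 on WT ISD, against 4.64 on TKO mock and 4.54 on WT mock. The widest difference was at 1 probe of Ifna1, with 6.06 on TKO ISD and 9.44 on WT ISD, a level 10.4-fold lower on TKO ISD. The other Ifna1 members were only 2.56-fold lower (6.40 on TKO ISD and 7.75 on WT ISD) and 2.84-fold lower (6.29 on TKO ISD and 7.79 on WT ISD). Ifna15 (6.23 on TKO ISD, 9.27 on WT ISD) and Ifna14 (6.34 on TKO ISD, 9.29 on WT ISD) were 8.23-fold and 7.74-fold lower, and 2 probes of Ifna6 that were not detected on TKO ISD put it at least 4.83-fold lower (8.05 on WT ISD) and at least 6.46-fold lower (8.46 on WT ISD). Ifnb1 and the Ifna genes lie in 1 cluster and were both raised by ISD in WT cells, and Ifnb1 was level between the ISD arrays while none of the 19 Ifna probes was. The 1 probe of Ifnb1 lay within 1 log2 unit of the brightest probe of the arrays, where a difference may be hidden, and the Ifna probes were dimmer. All 9 Ifna genes among the members held an ISRE match in their window and none a kB match. Of all measured genes with a window, 4.22% held an ISRE match and 1.66% a kB match. Any part of these matches in the Ifna levels was not tested.

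**Figure D3:**
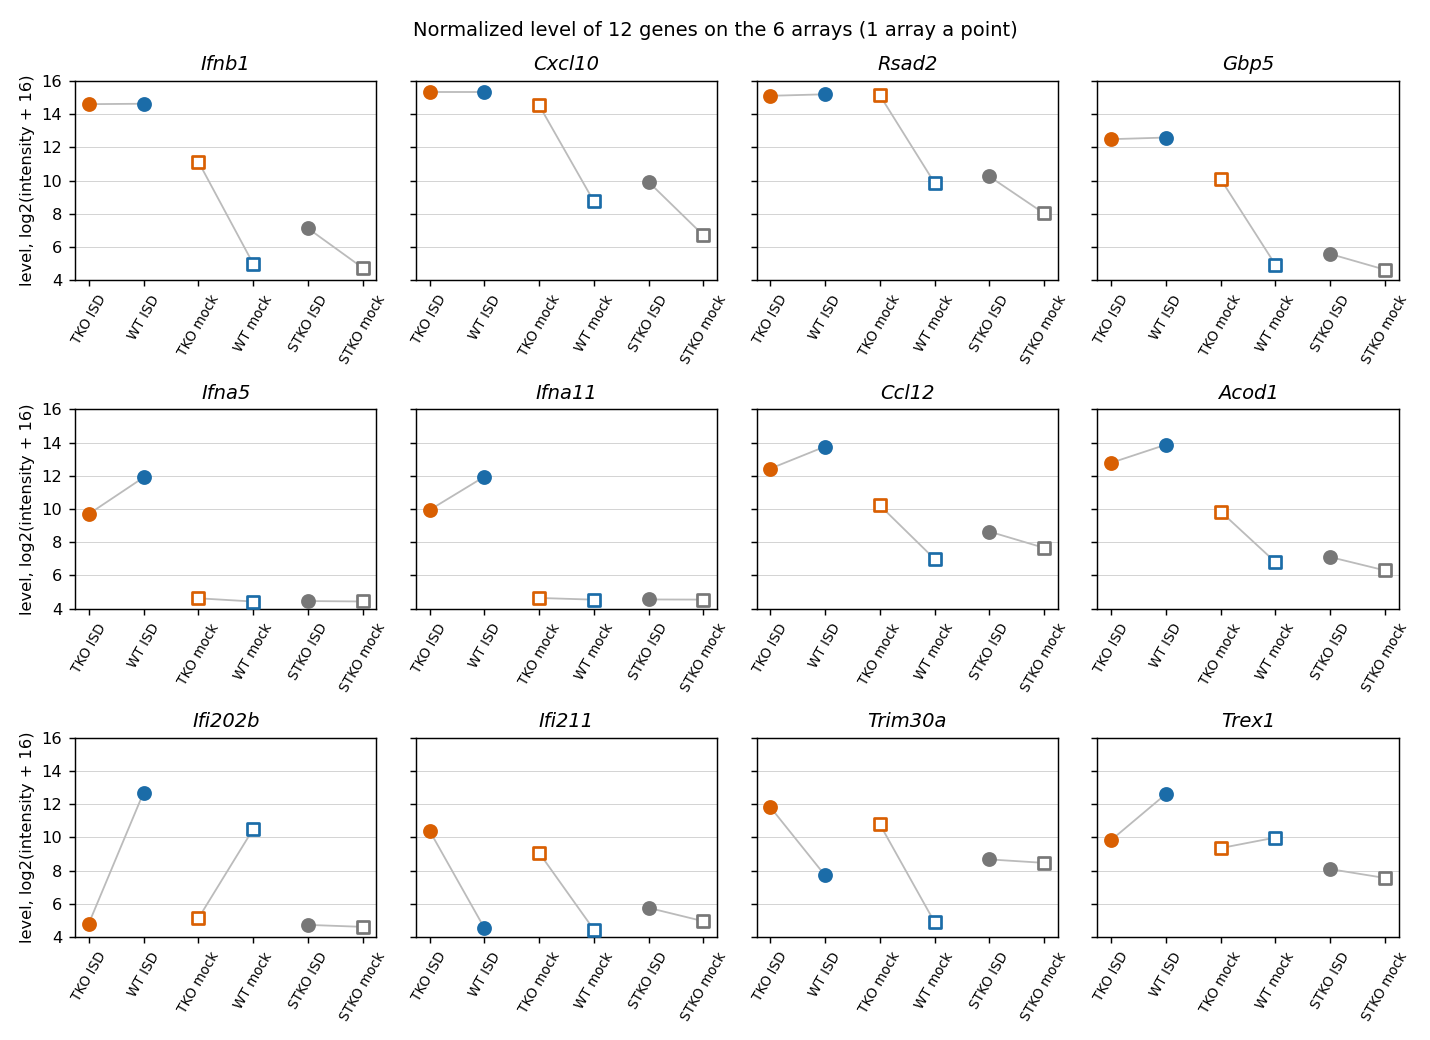
Panels show 12 genes, with normalized level, log2(intensity + 16), on the vertical axis and the 6 arrays on the horizontal axis; circles are ISD and squares mock arrays, orange TKO, blue WT and grey STKO, each point 1 array, and lines join the 2 arrays side by side. In the top row the TKO and WT ISD points are level (Ifnb1 14.61 and 14.63) over unequal mock points; in the middle row WT ISD is above TKO ISD; in the bottom row the difference has the same direction in both states.

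Chemokines and cytokines were divided. Of 17 chemokines, 8 were higher on TKO mock, of which 4 were level with ISD and 2 were lower, Ccl12 and Ccl8, so that they changed sides. Ccl12, a mouse monocyte attractant of the CCR2 family, stood at 12.44 on TKO ISD and 13.77 on WT ISD, against 10.22 on TKO mock and 6.99 on WT mock, and its second probe did the same (11.65 on TKO ISD and 13.24 on WT ISD, against 9.68 on TKO mock and 6.16 on WT mock). Ccl8 stood at 10.11 on TKO ISD and 11.24 on WT ISD, against 7.97 on TKO mock and 6.85 on WT mock. Ccl5, another chemokine, closed its gap, at 14.47 on TKO ISD and 14.74 on WT ISD, against 11.74 on TKO mock and 9.36 on WT mock. Cxcl9, a CXCR3 ligand like Cxcl10, lay between the limits at 14.39 on TKO ISD and 15.02 on WT ISD, against 10.54 on TKO mock and 6.32 on WT mock.

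Il1b, the inflammasome-processed cytokine, was the widest of the cytokines, at 7.25 on TKO ISD and 10.26 on WT ISD, and at 5.53 on TKO mock and 7.13 on WT mock. Nlrp3, the sensor of that inflammasome, was detected on neither TKO array and stood at 5.07 on TKO ISD and 6.46 on WT ISD. Il18, a related cytokine, stood at 10.01 on TKO ISD and 11.02 on WT ISD, against 9.39 on TKO mock and 9.01 on WT mock. Tnf went the other way, at 13.37 on TKO ISD and 12.37 on WT ISD, against 11.52 on TKO mock and 9.55 on WT mock. Tnfsf13b (BAFF), a survival factor for B cells, stood at 8.84 on TKO ISD and 7.73 on WT ISD, against 8.09 on TKO mock and 6.88 on WT mock. Of the 17 cytokines measured, 2 were higher and 2 lower on TKO ISD, and 10 were level.

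Besides both Ccl12 probes and Ccl8, 6 further probes were higher on TKO mock and lower on TKO ISD. Acod1, the enzyme that makes itaconate in activated macrophages, stood at 12.79 on TKO ISD and 13.88 on WT ISD, against 9.85 on TKO mock and 6.80 on WT mock, and its other probe lay between the limits at 13.29 on TKO ISD and 14.09 on WT ISD. Gbp2 changed sides on 1 of its 3 probes (10.44 on TKO ISD and 11.54 on WT ISD, against 8.11 on TKO mock and 5.07 on WT mock). Its dimmest probe, level on mock, was also 2-fold lower on TKO ISD, at 7.01 on TKO ISD and 8.41 on WT ISD. Its brightest probe was level with ISD at 14.93 on TKO ISD and 15.16 on WT ISD. That probe lay within 1 log2 unit of the brightest probe of the arrays, where a difference may be hidden. Ch25h, which makes the antiviral oxysterol 25-hydroxycholesterol, stood at 13.26 on TKO ISD and 14.30 on WT ISD, against 11.70 on TKO mock and 10.24 on WT mock. For each of these genes the WT level lay below the TKO level without ISD and above it with ISD.

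Another set of probes was 2-fold apart in the same direction with and without ISD. Of the 239 probes 2-fold higher in TKO in both states, 65.7% responded to ISD by less than 1.5-fold in either genotype, and so did 74.1% of the 432 probes 2-fold lower in both, beside 68.5% of all members. Their median levels on STKO ISD, 7.38 and 7.92, lay between those of TKO ISD (8.60 for the higher and 6.82 for the lower probes) and WT ISD (6.66 for the higher and 8.43 for the lower probes).

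Fcer1g, the common gamma chain of Fc receptors and a myeloid signalling adaptor, was the extreme. It stood at 15.01 on TKO ISD and 4.64 on WT ISD, at 15.02 on TKO mock and 4.49 on WT mock, and at 14.92 on STKO ISD and 14.93 on STKO mock. The TKO level was at least 548-fold above WT with ISD, and WT was the genotype that stood apart, its probe not detected while Tyrobp, a partner adaptor of the same cells, was level. Only 1 probe reads Fcer1g. Mcm6, a subunit of the replication helicase, had the same order by 1 of its probes, at 11.21 on TKO ISD and 6.11 on WT ISD, 11.50 on TKO mock and 6.34 on WT mock, and 12.04 on STKO ISD. Other Mcm6 probes did not: they stood at 11.18 on TKO ISD and 11.04 on WT ISD, at 10.74 on TKO ISD and 10.30 on WT ISD, and, the dimmest, at 5.91 on TKO ISD and 6.93 on WT ISD. Casp4, the caspase that senses cytosolic lipopolysaccharide, was at least 45.8-fold higher on TKO ISD by 1 probe (11.42 on TKO ISD, 4.62 on WT ISD), but its other 2 probes were 0.88 and 0.67 apart on the log2 scale.

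The p200 genes, interferon-inducible DNA-binding proteins encoded side by side on chromosome 1, did not move as one. Ifi202b stood at 4.81 on TKO ISD and 12.71 on WT ISD, and at 5.13 on TKO mock and 10.50 on WT mock, at least 123-fold lower on TKO ISD, with a second probe at least 96.4-fold lower. Ifi211 stood at 10.41 on TKO ISD and 4.55 on WT ISD, and at 9.08 on TKO mock and 4.44 on WT mock. Ifi205 stood at 11.35 on TKO ISD and 6.88 on WT ISD, and at 9.48 on TKO mock and 4.48 on WT mock, and its other 2 probes were also 2-fold higher in both states. Ifi213 stood at 12.09 on TKO ISD and 8.10 on WT ISD, against 11.55 on TKO mock and 4.71 on WT mock, and Ifi204 at 10.04 on TKO ISD and 7.43 on WT ISD, against 8.97 on TKO mock and 5.51 on WT mock. Of the 5 measured genes of the p200 list, which does not hold Ifi213, Ifi204, Ifi205 and Ifi211 were higher on TKO ISD, Ifi202b was lower, and Aim2 was level by its brighter probe. Other genes of the same cluster outside the list, looked up after values were seen, closed their gap or disagreed between probes. Ifi207 stood at 13.57 on TKO ISD and 13.35 on WT ISD, against 12.93 on TKO mock and 10.63 on WT mock, and Mndal at 11.03 on TKO ISD and 11.06 on WT ISD by its brighter probe. Ifi214 stood at 11.17 on TKO ISD and 10.44 on WT ISD by 1 probe and at 5.61 on TKO ISD and 7.24 on WT ISD by another. These genes share long stretches of sequence, so a probe may read more than 1 of them.

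Chromosome 1 held 26 of the 161 placed genes that were higher in TKO in both states (16.1%), where it holds 488 (5.37%) of the genes among the members. In gene order, a window of 25 members on each side of Ifi211, chosen after its values were seen, held 13 genes higher and 4 lower on TKO ISD, 33.3% of its 51, where 8.58% of all 9083 placed genes were 2-fold apart. The window around Fcer1g held 10 higher and 6 lower of 51 (31.4%) and overlaps the first. Among its genes Ly9, Cd48 and Slamf9, receptors of the SLAM family on blood cells, were higher in both states, and the Fc receptors Fcgr3 and, by 1 of its 2 probes, Fcgr2b were lower in both. Around Trex1 itself, on chromosome 9, the window held 1 higher and 4 lower genes of 51 (9.80%), Trex1 included. Around Rpl29, on the same chromosome, it held 1 higher and 9 lower (19.6%). Not every window was rich in such genes. Around Mcm6, also on chromosome 1, 7.84% of 51 genes were 2-fold apart, around Trim30a 7.84% of 51, and around Casp4 13.3% of 30. Rpl29, a ribosomal protein gene, stood at 5.75 on TKO ISD and 11.52 on WT ISD, and at 5.67 on TKO mock and 11.48 on WT mock.

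Trim30a, a TRIM protein that in mouse restrains NF-kB and STING signalling, was 17.4-fold higher on TKO ISD, at 11.83 on TKO ISD and 7.71 on WT ISD, against 10.79 on TKO mock and 4.89 on WT mock. It was one of the 2 antiviral effectors still higher with ISD, the other being Slfn5 (8.22 on TKO ISD and 7.19 on WT ISD). Among the lower genes, Serpina3n, a secreted protease inhibitor, stood at 5.53 on TKO ISD and 10.14 on WT ISD and at 5.20 on TKO mock and 9.82 on WT mock, but at 10.02 on STKO ISD. Rgs4, a brake on G-protein signalling, stood at 4.56 on TKO ISD and 8.51 on WT ISD, and Igfbp2, an insulin-like growth factor binding protein, at 5.06 on TKO ISD and 8.48 on WT ISD. Fcrls, a microglia and macrophage scavenger receptor-like gene of mouse, stood at 8.46 on TKO ISD and 12.04 on WT ISD.

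MHC class II genes, which present antigen to CD4+ T cells, were higher in TKO in both states, and none was 2-fold apart between ISD and mock in either genotype. Of 6 measured, 4 were 2-fold higher on TKO ISD and 5 on TKO mock, with medians of 1.47 with ISD and 1.48 on mock. H2-Aa stood at 10.39 on TKO ISD and 8.56 on WT ISD, and at 10.44 on TKO mock and 8.54 on WT mock. Cd74, the invariant chain, stood at 12.24 on TKO ISD and 11.02 on WT ISD, and at 12.30 on TKO mock and 11.02 on WT mock. On the STKO arrays H2-Aa was in between, at 9.39 on STKO ISD and 9.40 on STKO mock. The macrophage list had a median difference of -0.02 with ISD and 0.06 on mock, and its part in the class II levels was not tested.

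Some fibroblast matrix, contractile and positional genes were lower in TKO cells with and without ISD, and few were higher. Of 17 extracellular matrix genes, 6 were lower and 2 higher on TKO ISD, and 10 were lower on TKO mock. The shares to set beside the list counts here and below are those over all 9077 measured genes. Of these, 5.17% were lower and 3.38% higher on TKO ISD, and 5.28% were lower on TKO mock. Col1a1, the main chain of type I collagen, stood at 10.43 on TKO ISD and 11.93 on WT ISD, and at 10.27 on TKO mock and 12.07 on WT mock. Col1a2, the partner chain of the same fibre, was on the other side, at 10.35 on TKO ISD and 8.97 on WT ISD. Of 15 contractile and TGF-beta genes 4 were lower, 8 were level and none was higher, for instance the smooth-muscle actin Actg2 at 11.07 on TKO ISD and 12.72 on WT ISD. Of 11 homeobox and positional genes 6 were lower and none higher, for instance Hoxc9 at 9.53 on TKO ISD and 10.87 on WT ISD. Of the 12 fibroblast markers 3 were lower and 1 was higher on TKO ISD, with a median difference of -0.63.

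Some genes of growth arrest were lower as well. Cdkn2b (p15), an inhibitor of CDK4 and CDK6, stood at 7.03 on TKO ISD and 9.54 on WT ISD, and at 7.22 on TKO mock and 10.74 on WT mock. Cdkn2a, the p16 and p19Arf locus, stood at 7.79 on TKO ISD and 9.21 on WT ISD, and at 7.55 on TKO mock and 9.48 on WT mock. In the senescence list 4 of 8 genes were lower in both states, 3 were level with ISD and none was higher. Of 23 cell-cycle genes 6 were lower on TKO ISD and 1 was higher, beside 5.17% lower and 3.38% higher of all 9077 measured genes. Among the lower was Cdc20, the mitotic activator of the anaphase-promoting complex, at 8.58 on TKO ISD and 9.93 on WT ISD. Among imprinted genes, Igf2, an embryonic growth factor, stood at 7.73 on TKO ISD and 9.88 on WT ISD, and Cdkn1c (p57) was higher, at 11.82 on TKO ISD and 9.35 on WT ISD. Matrix-degrading enzymes were higher in 5 of 13 cases and lower in 1, with Mmp12, the macrophage elastase, at 12.53 on TKO ISD and 10.08 on WT ISD. Mmp13, a collagenase of the same list, instead closed its gap, at 14.58 on TKO ISD and 14.67 on WT ISD, against 12.32 on TKO mock and 10.12 on WT mock.

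The 99 probes lower on TKO mock that were level with ISD were dimmer than those that closed from above. Most of the 99 still lay slightly lower on TKO ISD, with a median difference of -0.35 and quartiles of -0.47 and -0.20. Their median level was 6.88 on TKO ISD and 7.11 on WT ISD, against 6.84 on TKO mock and 8.02 on WT mock, and 36 of them were 2-fold lower with ISD than on mock in WT cells and 6 in TKO cells. Of all 15669 members, 644 were 2-fold lower with ISD in WT cells and 143 in TKO cells. A lower difference, ISD minus mock, in WT than in TKO cells follows from how the 99 probes were chosen. Ddit4 (REDD1), a stress-induced brake on mTORC1, stood at 6.85 on TKO ISD and 6.93 on WT ISD, against 6.91 on TKO mock and 8.70 on WT mock. Sesn1, a p53-regulated antioxidant protein, stood at 7.11 on TKO ISD and 7.37 on WT ISD, against 9.18 on TKO mock and 10.71 on WT mock. Foxc2, a forkhead factor of mesenchyme, stood at 5.89 on TKO ISD and 6.43 on WT ISD, against 7.34 on TKO mock and 9.15 on WT mock. Ankrd1, a target of YAP, stood at 6.14 on TKO ISD and 6.21 on WT ISD, against 5.27 on TKO mock and 6.78 on WT mock. Its TKO level was 0.87 higher with ISD than on mock on the log2 scale, less than 2-fold. The probe was not detected on TKO mock, so the size of that rise is uncertain.

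A few p53 targets were lower on TKO mock, and others higher on TKO ISD. Of 13 measured, 3 were lower on TKO mock and none higher, and 9 were level, 3 higher and none lower on TKO ISD. Phlda3 and Tnfrsf10b, 2 of the 3 lower on TKO mock, were level with ISD, and Fas lay lower by less than 2-fold, at 10.54 on TKO ISD and 11.34 on WT ISD. Sesn2, which restrains mTORC1, changed sides, at 7.65 on TKO ISD and 6.63 on WT ISD, against 5.79 on TKO mock and 6.84 on WT mock. Trp53inp1, a pro-apoptotic p53 target, stood at 9.71 on TKO ISD and 8.53 on WT ISD, against 8.08 on TKO mock and 8.91 on WT mock. Mdm2, the ligase that degrades p53, stood at 12.54 on TKO ISD and 11.44 on WT ISD, against 12.01 on TKO mock and 11.78 on WT mock, with its other probes higher by less than 2-fold, for instance 12.69 on TKO ISD and 11.85 on WT ISD. These 3 genes lay higher with ISD than on mock in TKO cells and slightly lower in WT cells. On the STKO arrays they were also higher with ISD, for Mdm2 at 12.82 on STKO ISD and 12.02 on STKO mock.

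Of the probes level on mock and 2-fold higher on TKO ISD, 4 of the 5 largest differences were at probes with levels under 7 on TKO ISD. By the brightest of its 3 probes, Trim30b, a relative of Trim30a, stood at 6.76 on TKO ISD and was not detected on the other arrays (4.54 on WT ISD, 4.61 on TKO mock, 4.37 on WT mock). The exception was Lhfpl2, a membrane protein of the tetraspan type, which stood at 11.19 on TKO ISD and 9.39 on WT ISD, against 12.67 on TKO mock and 12.17 on WT mock, so that ISD left more of it in TKO cells. A second probe of the same gene repeated the call with ISD in 14 of 71 cases (19.7%) for this class. It did so in 38 of 71 (53.5%) for the probes level on mock and lower on TKO ISD. These were the lowest shares of the groups described, but the calls are not equally common. Of all members, 3.45% were 2-fold higher, 4.8% were 2-fold lower and 76.7% were level with ISD, so the shares do not rank the groups.

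Level pairs were also more common among bright probes. Among the probes higher on TKO mock, 32.6% of the 221 whose brighter ISD level was under 8 were level, and 43.2% of 199, 52.3% of 172 and 64.3% of 98 in the next steps of 2 log2 units, with 75% of the 32 at 14 and over. Over all members the share went from 70.9% of 6650 to 88.9% of 226. Of the 335 closed gaps, 16 lay within 1 log2 unit of the brightest probe of the arrays, Ifnb1, Cxcl10, Rsad2, Cd69, Ifit2, Irf1, Ccl5 and Mmp13 among them, where the scanner's upper limit may hide a difference, and whether it did was not tested. Mx2, Gbp5, Irf7, Isg15 and the second Cxcl10 probe lay below that range.

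**Figure D4:**
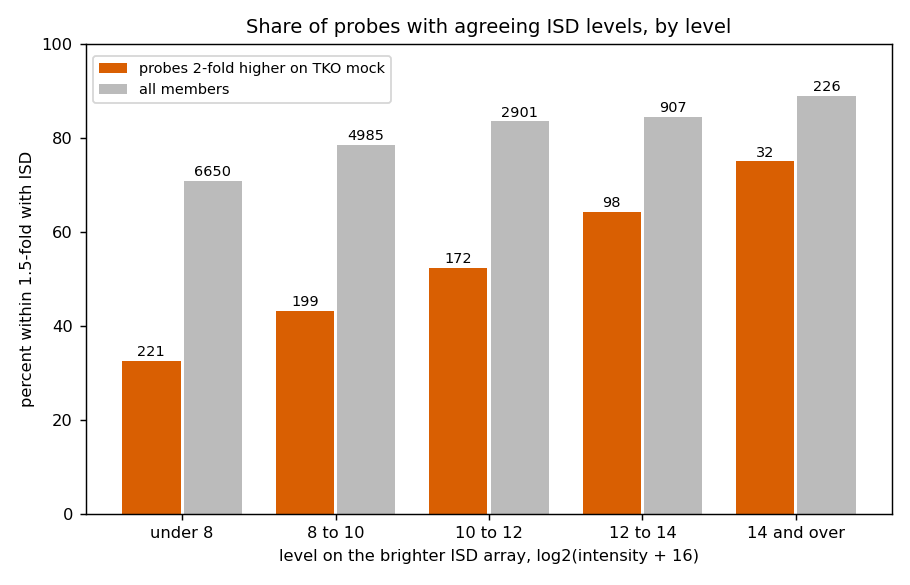
Bars give the percent of probes whose TKO ISD and WT ISD levels lay within 1.5-fold, by the level on the brighter ISD array in log2(intensity + 16); orange bars are probes 2-fold higher on TKO mock and grey bars all members, with the number of probes above each bar. The orange share runs from 32.6% to 75% and is below the grey share, 70.9% to 88.9%, in every step.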

How the data were processed

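RNA of 6 mouse fibroblast cultures was measured on 6 arrays, 1 a group, and samples were grouped by their titles. The authors deposited a table of intensity values whose name calls it non-normalized, with a fraction beside each that its header calls a detection p-value. The deposited fraction increases with the intensity (Spearman's rho 0.9837 to 0.9884 over the probes of an array), so it was taken to be the proportion of negative controls outshone. They also deposited a second table of log2 values, centred on each probe's median over the 6 arrays (column medians -0.01 to 0), whose scaling between arrays is unknown and which served as an alternative. The sources used here name no scanner software and no version.

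Intensities were background-corrected, quantile-normalized and put on the log2 scale by neqc (limma 3.58.1, R 4.3.3) with an offset of 16, which understates differences of dim probes. Counting ran in Python 3.11.15 with pandas 2.3.3. A probe was called different at 2-fold and level within 1.5-fold. Where the dimmer probe was not detected, a fold is a lower bound, taken against its own level or that of the dimmest detected probe of the array, whichever is higher. The number of arrays limits the precision, and no test was possible. Genes were named from GEO's platform annotation, updated by Entrez ID: of the 45281 probes 34885 have 1 gene, 18 several and 10378 none. The brightest of a gene's probes stood for it in lists, and several probes of a gene may disagree.

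Genes named are the 10 with the largest difference each way, the 10 closed gaps each way with the largest mock difference, the 5 each way level on mock, the probes that changed sides, Trex1 and Sting1, and up to 4 genes each in a list for the ISD and for the mock difference. Ly9, Cd48, Slamf9, Fcgr2b and Fcgr3, the second probes, and genes of lists named beside their values outside these were chosen after values were seen. The comparison, its lists and their members were chosen with earlier results of these data known. The counting of classes was tested on simulated data. Alternatives were no background correction, an offset of 50, median scaling, the authors' log2 table, stricter and looser detection, other fold limits, 1 probe a gene, and leaving out the brightest probes.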

Additional observations from a re-analysis of the deposited data

Results flagged for a closer look

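At 13 probes TKO and WT cells lay 2-fold apart in opposite directions with ISD and on mock, and whether the 2 differences differ was not tested, since each rests on 1 array a side. The differences with ISD, TKO minus WT on the log2 scale, were -1.59 and -1.33 for the 2 probes of Ccl12, -1.14 for Ccl8, -1.11 for Gbp2, -1.09 for Acod1, -1.03 for Ch25h, -1.19 for BC147527, and -1.44 and -1.38 for 2 probes without a gene name. On mock these 9 were all higher in TKO cells, by 1.13 (Ccl8) to 3.52 (Ccl12). The other 4 ran the other way: Dedd2 differed by 1.48 with ISD and -1.0 on mock, Mbp by 1.16 and -1.11, Slco4a1 by 1.06 and -1.33, and Sesn2 by 1.02 and -1.04. Dedd2 and Mbp were not detected on WT ISD, so their folds with ISD are bounds, at least 1.55-fold and at least 1.66-fold.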

How the results depend on the processing

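The counts depend on how dim probes are treated, and with the fold limits unchanged the shares do much less. The shares of level probes do depend on the fold limits. At 1.5-fold in place of 2-fold, 673 mock-lower probes were level beside 1142 still lower, and 883 mock-higher probes were level beside 732 still higher. In the order higher on TKO ISD, lower on TKO ISD, mock-higher level, mock-higher still higher, mock-lower level, mock-lower still lower, level on mock and higher with ISD, level on mock and lower with ISD, and changed sides, the counts without background correction were 221, 326, 221, 136, 53, 211, 35, 48 and 5, and with the authors' log2 values 227, 329, 223, 139, 56, 212, 37, 48 and 5. At 1.5-fold in place of 2-fold they were 1765, 1880, 883, 732, 673, 1142, 979, 671 and 98, and with 1 probe a gene (chosen after seeing the data) 307, 469, 189, 136, 64, 277, 92, 92 and 8. In the same order, an offset of 50 gave 269, 411, 246, 154, 61, 260, 53, 67 and 6. Probes detected on both arrays gave 296, 481, 261, 136, 81, 291, 67, 74 and 8. A tighter limit for level pairs left 36 mock-lower probes level, and 88 and 81 level on mock and higher or lower with ISD. Counting only probes detected on both arrays, and a tighter limit, keep fewer probes by construction; for the other settings the cause was not tested. Of the probes higher on TKO mock, 46.4% to 49.9% were level with ISD over the main setting, no background correction, the larger offset, median scaling and the authors' values, and of those lower on TKO mock 12.9% to 16.3%. Of the 2-fold calls 38.2% to 41.8% were higher under those 5 settings, and 48.4% at 1.5-fold. The median of each gene list moved by less than 1.5-fold in all 160 recomputations, as did 836 differences of named probes; 80 moved further, and none that was 2-fold or more changed sign. Without the brightest probes (chosen after seeing the data) 319 gaps were closed. No paired analysis was possible because the labels give no replicate numbers and each group is 1 array, and no array could be left out. Low signal limits the dim classes: a fold under the lowest detected level is only a bound.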
